A study of Homo sapiens with 4 samples.

Results

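The 49 genes described here encode proteins of the lysosome, taken as a fixed list of hydrolases, the activator proteins of lipid hydrolases, membrane proteins and subunits of the vacuolar proton pump (V-ATPase). All 49 were measured, among 18417 genes with at least 1 single-gene probe set, and each was read from the brightest such probe set, by its mean over the 4 arrays. They comprised 27 hydrolases, 2 activator proteins, 4 membrane proteins and 16 V-ATPase genes. No rule on measured values chose the genes, but the list was drawn up with earlier results of these data known. It may therefore not be independent of the values described below.

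Expression was measured in MiaPaCa2, a human pancreatic cancer cell line, in 2 cultures given LY101-4B at 50 µM for 24 h and 2 given vehicle for 24 h. The series title names LY101-4B an E2F inhibitor (E2F is the transcription factor family that drives entry into S phase), and its design text calls the cultures biological replicates. A protocol text shared by all samples instead names LY101-4D at 25 µM; titles, agent labels and design text give LY101-4B at 50 µM. All groups are of 1 cell line, grown in medium with fetal calf serum. Each array of the Human Gene 1.0 ST type gave log2 values made by RMA, whose medians lay between 5.88 and 5.97. Replicate arrays correlated at r = 0.994 for LY101-4B and 0.997 for vehicle over 21214 gene-annotated probe sets, against 0.978 to 0.981 between groups. The 5 epithelial markers averaged 8.38 and 8.39 log2 units on the LY101-4B arrays and 8.65 and 8.69 on the vehicle arrays. KRT8 averaged 11.94 and KRT18 12.38 with LY101-4B, against 12.77 and 12.94 with vehicle, and both fell (limma adjusted p 0.00371 and 0.0106; that of KRT18 was 0.0983 and 0.0527 without vehicle replicate 1 or 2). Their part in the results below was not tested. KRT19 averaged 9.13 with LY101-4B and 9.22 with vehicle (adjusted p 0.619), whereas EPCAM and CDH1 stayed between 3.80 and 4.63 on all 4 arrays. Endothelial markers averaged 4.79 and 4.69 on the LY101-4B arrays and 4.84 and 4.77 on the vehicle arrays, with 0 of 4 called by limma and 0 at an unadjusted p under 0.05. Leukocyte markers averaged 5.62 and 5.57 with LY101-4B and 5.53 on both vehicle arrays, with 0 of 5 called by limma and 0 at an unadjusted p under 0.05. Fibroblast markers averaged 5.95 and 5.86 with LY101-4B and 5.79 and 5.69 with vehicle. The collagen gene COL1A2 was the 1 of 5 that rose (0.47 log2 units; limma adjusted p 0.0167, or 0.139 and 0.102 without vehicle replicate 1 or 2), and its part in the results below was not tested.

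The lysosome breaks down proteins, glycans, lipids and nucleic acids that arrive by endocytosis and autophagy. Its hydrolases work in acid, which the V-ATPase maintains by pumping protons: the cytosolic V1 sector hydrolyses ATP and the membrane-bound V0 sector carries the protons across. Many lysosomal genes can be driven together by TFEB, TFE3 and MITF, transcription factors that bind E-box sequences in lysosomal promoters. Whether they drive the genes described here was not tested. In pancreatic cancer, lysosomes are known for supplying amino acids and lipids from autophagy and macropinocytosis.

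With LY101-4B single lysosomal genes changed in both directions, and most of the 49 did not pass. The sialidase gene NEU1 and the protease gene CTSL rose by 1.61 and 1.50 log2 units, and PSAP, the precursor of 4 saposins, rose by 1.12, whereas the protease gene CTSC fell by 0.86 log2 units. At a limma adjusted p under 0.05 over all tested probe sets, 12 of 49 genes (24.5%) rose and 4 (8.16%) fell, against 9.10% and 10.5% of all tested probe sets. Without vehicle replicate 1 or without vehicle replicate 2 these counts were 5 higher and 1 lower, without LY101-4B replicate 1 they were 8 and 2, and without LY101-4B replicate 2 they were 8 and 4. Over all rows of the table they were 6 and 1, and with an intensity trend 17 and 4. Bright probe sets were called more often: among those above the median mean value, 14.4% rose and 18.9% fell, and 44 of the 49 genes lay there, including all 16 called. The median difference was 0.17 log2 units over the 49 genes and 0.0053 over all tested probe sets. The LY101-4B and vehicle arrays did not overlap for 40 of the 49 genes, against 58.0% of all tested probe sets, bright or dim. The share among the brighter probe sets is not given, so a part of brightness in this gap was not tested. Each array reads RNA from a whole culture, so a change in every cell and a change in a share of the cells cannot be told apart. All differences are LY101-4B minus vehicle in log2 RMA units, with the moderated standard error (SE).

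**Figure D1:**
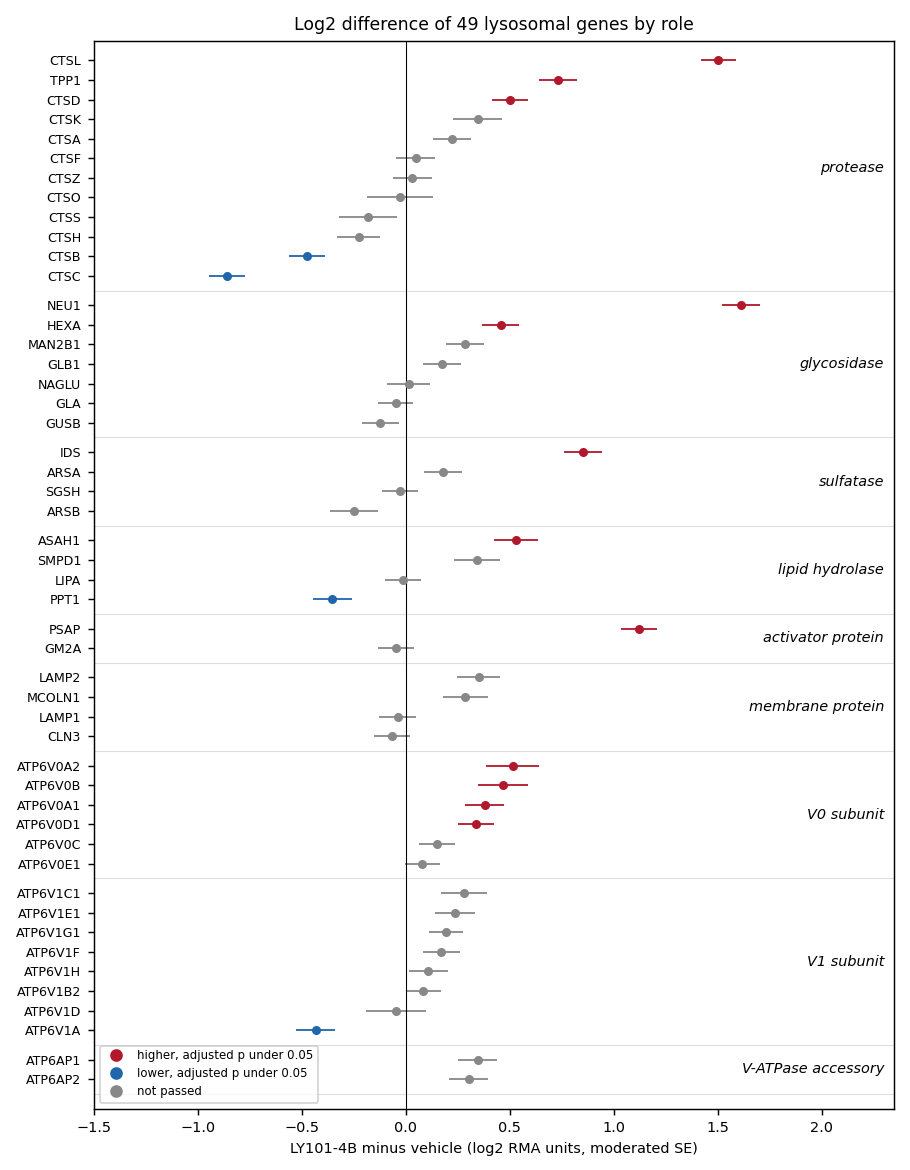
Log2 difference, LY101-4B minus vehicle, of the 49 lysosomal genes, grouped by role, with horizontal bars for the moderated SE (n = 2 arrays a group). Red marks genes higher and blue genes lower at a limma adjusted p under 0.05. NEU1, CTSL and PSAP lie above 1, CTSC is lowest at -0.86, and the V-ATPase genes keep between -0.43 and 0.51.

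Among the 12 proteases, 3 rose (25.0%), 2 fell (16.7%) and 7 did not pass. Of all tested probe sets 9.10% rose and 10.5% fell, and of those above the median mean value 14.4% and 18.9%. With so few genes in this and the following roles, 1 or 2 calls say little about a role. Counts at an unadjusted p under 0.05 appear below without the share of all tested probe sets at that level. They therefore say nothing about a role or list as a whole. CTSL, a cysteine endopeptidase, measured 10.87 and 10.86 log2 units on the LY101-4B arrays, against 9.33 and 9.38 on the vehicle arrays. The groups lay far apart relative to the gaps between replicates, and the difference of 1.50 ± 0.08 (SE) was a 2.83-fold rise (limma adjusted p 0.000675). TPP1, the tripeptidyl peptidase whose loss causes a neuronal ceroid lipofuscinosis, measured 9.09 and 9.21 with LY101-4B, against 8.44 and 8.41 with vehicle. It rose 1.66-fold (limma adjusted p 0.00479). CTSD, the aspartic endopeptidase, measured 11.19 and 11.23 with LY101-4B, against 10.67 and 10.75 with vehicle, a 1.41-fold rise (limma adjusted p 0.0137). Of these 3 rises, those of CTSL and TPP1 passed without any single array.

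CTSC and CTSB moved the other way. CTSC, the dipeptidyl peptidase that activates serine proteases of granules, measured 8.89 and 8.95 with LY101-4B, against 9.77 and 9.79 with vehicle. Its fall by 0.86 log2 units (SE 0.09) was 1.81-fold (limma adjusted p 0.00251) and was the 1 fall that passed without any single array. CTSB, a cysteine protease with both endo- and exopeptidase activity, measured 9.74 and 9.75 with LY101-4B, against 10.26 and 10.18 with vehicle. It fell by 0.48 log2 units (SE 0.09, limma adjusted p 0.0159), with no overlap between groups. Without vehicle replicate 1 or 2 the adjusted p was 0.142 and 0.0908 for CTSB and 0.123 and 0.0819 for CTSD.

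The other 7 proteases had differences from -0.23 for CTSH, an aminopeptidase, to 0.35 for CTSK, an endopeptidase best known from osteoclasts. CTSA, the carboxypeptidase that holds NEU1 and GLB1 in a complex, differed by 0.22 ± 0.09 (limma adjusted p 0.156), and its 95% interval ran from -0.0010 to 0.45. CTSZ, a carboxypeptidase, differed by 0.032, and by -0.032 with each array centred on its median. CTSF, CTSK, CTSO and CTSS had group means between 4.13 and 5.96 log2 units, below the median mean value of 6.49, and as no detection calls were used, their standing relative to background is unknown. CTSF differed by 0.048, or -0.017 with median centring, CTSO by -0.028 and CTSS, a protease of antigen-presenting cells, by -0.18.

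Among glycosidases 2 of 7 (28.6%) rose, against 9.10% of all tested probe sets, and 0 fell by limma (3 and 0 at an unadjusted p under 0.05). NEU1, the sialidase that removes terminal sialic acids from glycans, measured 9.58 and 9.66 log2 units with LY101-4B, against 7.95 and 8.06 with vehicle. Both LY101-4B arrays lay well above both vehicle arrays, and the 3.05-fold rise (1.61 ± 0.09, limma adjusted p 0.00069) passed without any single array. The other 2 NEU1 probe sets had values identical to each other on every array, so they count as 1 measurement, and rose 2.98-fold. HEXA, the alpha subunit of beta-hexosaminidase, measured 8.85 and 8.95 with LY101-4B, against 8.45 and 8.44 with vehicle. It rose by 0.46 ± 0.09 (limma adjusted p 0.0192), with an adjusted p of 0.130 without vehicle replicate 1 and 0.139 without vehicle replicate 2.

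The other 5 glycosidases did not pass. MAN2B1, an alpha-mannosidase, differed by 0.29 ± 0.09 (limma adjusted p 0.0848) and GLB1, the beta-galactosidase bound by CTSA, by 0.17 ± 0.09 (adjusted p 0.263). GUSB, the beta-glucuronidase, differed by -0.12 and GLA, the alpha-galactosidase, by -0.048, or 0.028 under cyclic loess. NAGLU, which degrades heparan sulfate, differed by 0.014, or -0.051 with median centring. The 3 lysosomal partners in the CTSA complex thus had differences of 1.61 for NEU1, 0.22 for CTSA and 0.17 for GLB1, and only the 95% interval of NEU1 (1.38 to 1.84) lay clear of 0.

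**Figure D2:**
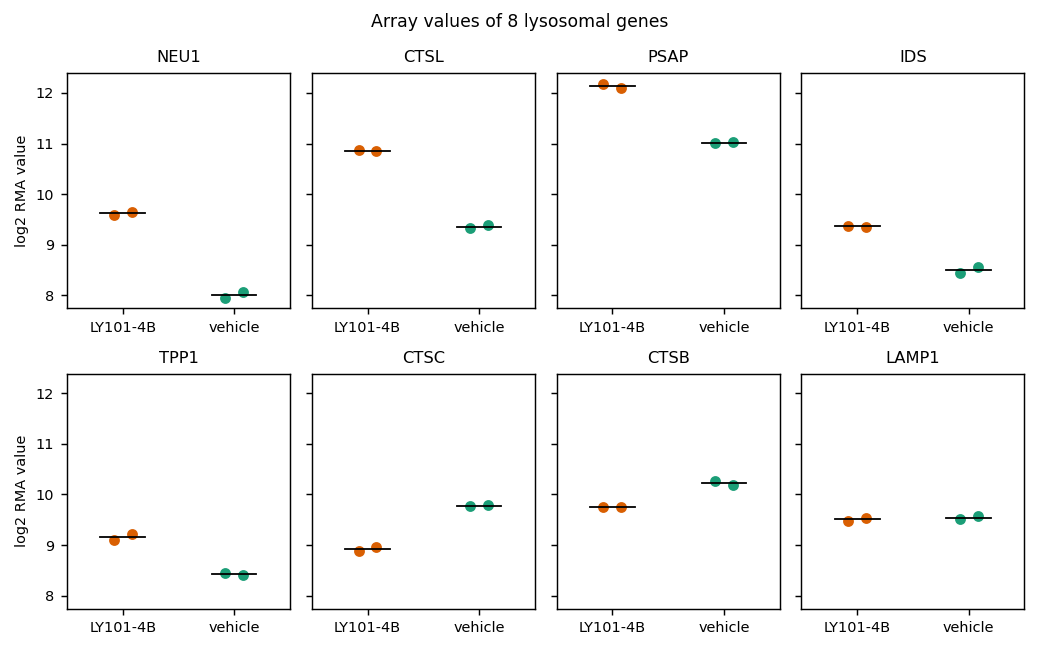
Log2 RMA values (vertical axis) of 8 lysosomal genes on each array, with LY101-4B left and vehicle right in each panel, points for arrays and bars for group means (n = 2 each). The groups stand apart for NEU1, CTSL, PSAP, IDS and TPP1, which were higher with LY101-4B, and for CTSC and CTSB, which were lower, whereas the LAMP1 arrays overlap.

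Of 4 sulfatases 1 (25%), IDS, rose, against 9.10% of all tested probe sets, and 0 fell by limma (1 and 0 at an unadjusted p under 0.05). IDS, the iduronate sulfatase of dermatan and heparan sulfate breakdown, measured 9.36 on both LY101-4B arrays, against 8.45 and 8.57 with vehicle. It rose 1.81-fold (0.85 ± 0.09, limma adjusted p 0.00292), also without any single array, and its dimmer probe set rose 1.51-fold. ARSA, which cleaves sulfatide, differed by 0.18, ARSB, which cleaves sulfated N-acetylgalactosamine, by -0.25 and SGSH, the heparan sulfamidase, by -0.028, with limma adjusted p between 0.208 and 0.863.

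The 4 lipid hydrolases were mixed. ASAH1, the acid ceramidase, measured 8.27 and 8.47 with LY101-4B, against 7.90 and 7.78 with vehicle, and rose 1.44-fold (0.53 ± 0.11, limma adjusted p 0.0222). PPT1, the palmitoyl-protein thioesterase, measured 10.05 and 10.18 with LY101-4B, against 10.44 and 10.49 with vehicle, and fell by 0.35 log2 units (SE 0.09), just under the threshold at a limma adjusted p of 0.0496. SMPD1, the acid sphingomyelinase, differed by 0.34 ± 0.11 (adjusted p 0.0853), and LIPA, the acid lipase, by -0.013, or 0.079 under cyclic loess. The call of ASAH1 was lost without either vehicle array (adjusted p 0.0825 and 0.148) or without LY101-4B replicate 2 (0.0537). That of PPT1 was lost without either vehicle array (0.217 and 0.276) or without LY101-4B replicate 1 (0.114), and also under cyclic loess (0.0735).

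PSAP, whose saposins present sphingolipids to their hydrolases, measured 12.18 and 12.10 log2 units with LY101-4B, against 11.01 and 11.03 with vehicle. The gap between groups was many times the gaps between replicates, and the 2.17-fold rise (1.12 ± 0.09, limma adjusted p 0.00135) passed without any single array. GM2A, the activator that HEXA needs to degrade ganglioside GM2, differed by -0.047 ± 0.09 (adjusted p 0.767), or 0.013 under cyclic loess. Its 95% interval of -0.26 to 0.16 excluded a change as large as that of PSAP.

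Of the 4 membrane protein genes on the list 0 were called by limma, against 9.10% higher and 10.5% lower of all tested probe sets. At an unadjusted p under 0.05, 2 were higher, with no share of all tested probe sets to set beside them. LAMP1, a heavily glycosylated protein of the lysosomal membrane, measured 9.47 and 9.54 with LY101-4B, against 9.51 and 9.58 with vehicle. These arrays overlapped, with a difference of -0.038 ± 0.09 (limma adjusted p 0.82, 95% interval -0.26 to 0.18), or 0.042 under cyclic loess. LAMP2, its paralogue with a role in autophagy, measured 10.62 and 10.79 with LY101-4B, against 10.30 and 10.41 with vehicle. Its arrays did not overlap, and the difference of 0.35 ± 0.10 missed the threshold (limma adjusted p 0.0688). It passed under cyclic loess (0.0274) but not with each array centred on its median (0.138). MCOLN1, the lysosomal calcium channel TRPML1, measured 7.98 and 8.22 with LY101-4B, against 7.82 and 7.81 with vehicle (0.29 ± 0.11, adjusted p 0.132). CLN3, a membrane protein mutated in juvenile ceroid lipofuscinosis, differed by -0.066 (adjusted p 0.675).

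The V-ATPase genes ranged from -0.43 to 0.51 log2 units, and most did not pass. Of 16 genes 4 rose (25.0%), 1 fell (6.25%) and 11 did not pass, against 9.10% higher and 10.5% lower of all tested probe sets. All 16 lay above the median mean value, where 14.4% of probe sets rose and 18.9% fell. For 14 of the 16 both LY101-4B arrays lay above both vehicle arrays, against 28.5% of all tested probe sets, bright or dim. All 4 rises were among the 6 V0 subunits, of which 0 fell (4 and 0 also at an unadjusted p under 0.05). ATP6V0A2, an isoform of the large proton-channel subunit, measured 7.89 and 8.06 with LY101-4B, against 7.32 and 7.60 with vehicle (0.51 ± 0.13, limma adjusted p 0.0416). ATP6V0B, a proteolipid of the rotating ring, measured 10.11 and 9.86 with LY101-4B, against 9.44 and 9.59 with vehicle (0.47 ± 0.12, adjusted p 0.0464). ATP6V0A1, another isoform of the large subunit, measured 9.13 and 9.25 with LY101-4B, against 8.77 and 8.85 with vehicle (0.38 ± 0.09, adjusted p 0.0422). In each case the groups did not overlap, although the replicates of ATP6V0A2 and ATP6V0B differed by up to 0.28 and 0.25 log2 units.

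ATP6V0D1, which links the ring to the central stalk, rose by 0.34 ± 0.09 (limma adjusted p 0.0447). ATP6V0C, the main ring proteolipid, differed by 0.15 (adjusted p 0.295) and ATP6V0E1, a small membrane subunit, by 0.079 (adjusted p 0.587). The 4 V0 calls lay close under the threshold. The call of ATP6V0A1, ATP6V0A2 and ATP6V0D1 was lost whichever array was left out (adjusted p 0.0535 to 0.265, 0.0554 to 0.23 and 0.0764 to 0.29), and that of ATP6V0B without either vehicle array (0.244 and 0.121) or without LY101-4B replicate 1 (0.117). With each array centred on its median all 4 were also lost, at adjusted p between 0.0615 and 0.0954.

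In the V1 sector 0 of 8 genes rose and 1 (12.5%) fell by limma (1 and 1 at an unadjusted p under 0.05). Of all tested probe sets 9.10% rose and 10.5% fell. ATP6V1A, the catalytic subunit, measured 9.30 and 9.42 with LY101-4B, against 9.84 and 9.75 with vehicle, and fell by 0.43 log2 units (SE 0.09, limma adjusted p 0.028). Both LY101-4B arrays lay below both vehicle arrays. The call was lost without either vehicle array (adjusted p 0.201 and 0.123) or without LY101-4B replicate 1 (0.0766). ATP6V1B2, the B subunit that forms the catalytic hexamer with ATP6V1A, differed by 0.085 ± 0.08 (adjusted p 0.561). Of the subunits that couple V1 to V0, ATP6V1C1 differed by 0.28, ATP6V1E1 by 0.24, ATP6V1G1 by 0.19 and ATP6V1H by 0.11. The rotor subunits ATP6V1F and ATP6V1D differed by 0.17 and -0.047, and ATP6V1D by 0.032 under cyclic loess. The accessory proteins did not pass either: ATP6AP1 differed by 0.35 ± 0.09 (adjusted p 0.0524) and ATP6AP2, also known as the prorenin receptor, by 0.30 ± 0.10 (adjusted p 0.0847), with no overlap between groups. Under cyclic loess both passed (limma adjusted p 0.0201 and 0.0412), and with each array centred on its median neither did (0.114 and 0.175).

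Averaged over the 6 V0 genes, the arrays stood at 9.89 and 9.90 log2 units with LY101-4B, against 9.53 and 9.62 with vehicle. Averaged over the 8 V1 genes they stood at 9.75 and 9.83 with LY101-4B, against 9.71 and 9.72 with vehicle. The V0 mean minus the V1 mean was thus 0.14 and 0.075 with LY101-4B, against -0.18 and -0.10 with vehicle. The groups did not overlap, and the sector means moved unequally, by 0.32 for V0 and by 0.074 for V1. The V1 mean includes the fall of ATP6V1A, and the median difference was 0.36 over V0 genes and 0.14 over V1 genes, of which 6 of 8 were positive. These are descriptions of gene averages, given without a test. The comparison of V0 with V1 was not among the planned results, and its values under other processing are not given.

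**Figure D3:**
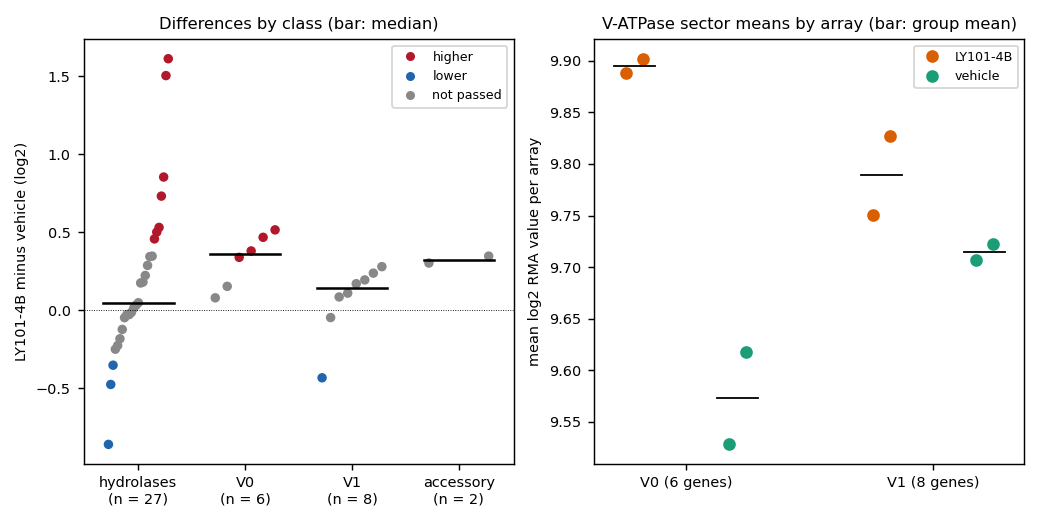
Left, log2 difference (LY101-4B minus vehicle) of each hydrolase, V0, V1 and accessory gene, coloured by call, with bars for class medians. Right, mean log2 RMA value of the V0 and V1 genes on each array, with LY101-4B left of vehicle and bars for group means (n = 2 arrays each). Hydrolases spread from -0.86 to 1.61, and the V0 means of the LY101-4B arrays lie 0.32 above those of vehicle.

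Set beside each other, hydrolases and V-ATPase genes had nearly the same mean difference and unlike spreads. The mean was 0.19 log2 units over the 27 hydrolases and 0.20 over the 16 V-ATPase genes, whereas the median was 0.048 for hydrolases and 0.22 for V-ATPase genes. The hydrolase median became -0.017 with each array centred on its median, and that of the V-ATPase genes 0.15. Without LY101-4B replicate 1 the order of the medians turned round, with 0.19 for hydrolases and 0.18 for V-ATPase genes. Differences had an SD of 0.54 over hydrolases and 0.23 over V-ATPase genes. Beyond 0.5 log2 units in either direction lay 7 hydrolases and 1 V-ATPase gene, and the share of all tested probe sets there is not given. Per array, the hydrolase mean minus the V-ATPase mean was -1.55 and -1.51 with LY101-4B, against -1.50 and -1.55 with vehicle. These arrays overlapped, and the group difference of -0.0041 was smaller than the SD between replicates of 0.033. Of the 27 hydrolases 7 rose (25.9%) and 3 fell (11.1%), and of the V-ATPase genes 25.0% and 6.25%. Of all tested probe sets 9.10% rose and 10.5% fell, and of those above the median mean value 14.4% and 18.9%. The share called higher was thus alike in both classes and does not set them apart. The similar means went with a few large rises in hydrolases and with many small positive differences in the pump.

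Genes of the lysosome outside the list were examined in 7 further lists. On the list of other lysosomal membrane proteins 12 of 22 genes rose (54.5%, against 14.4% of probe sets above the median mean value and 9.10% of all tested). By limma 0 fell (13 higher and 2 lower at an unadjusted p under 0.05), and the median was 0.39 log2 units. This list also holds NPC2, a soluble protein, as 1 of the 12 rises (0.46, limma adjusted p 0.0171). LAMP3, an inducible relative of LAMP1 and LAMP2, measured 7.30 and 7.29 with LY101-4B, against 5.08 and 5.52 with vehicle, and rose 3.99-fold (2.00 ± 0.15, limma adjusted p 0.0013). MCOLN3, a relative of MCOLN1, rose 2.24-fold, the sialic acid exporter gene SLC17A5 rose 2.07-fold and the tetraspanin gene CD63 rose 1.77-fold, with limma adjusted p of 0.00122, 0.00191 and 0.00292. NEU1, which releases sialic acid, and SLC17A5, which exports it from the lysosome, were thus both higher with LY101-4B. They were paired with their values in view, and a link between them was not tested. The calls of LAMP3, MCOLN3, SLC17A5 and CD63 held without any single array, whereas those of the other 8 were lost in at least 1 such fit. The vehicle values of LAMP3 and MCOLN3 were below the median mean value of 6.49, so these folds are uncertain in size.

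Of 18 genes listed as other lysosomal hydrolases 3 (16.7%) rose and 2 (11.1%) fell, with a median of 0.13. The list also holds HGSNAT, which is not a hydrolase and is 1 of the 3 rises. Among probe sets above the median mean value 14.4% rose and 18.9% fell, so the counts say little about these genes. DNASE2, the acid DNase, rose by 0.70, HGSNAT, the acetyltransferase of heparan sulfate breakdown, by 0.64 and MANBA, the beta-mannosidase, by 0.62, while GGH, the folate polyglutamate hydrolase, fell by 0.81 log2 units and CTSV, a close paralogue of CTSL, fell by 0.61 log2 units. MANBA, the smallest of 3 rises, and CTSV, the smaller of 2 falls, complete the 5 called genes. CTSL and CTSV are similar in sequence but their probe sets moved apart, by 1.50 and -0.61. Without vehicle replicate 1 or 2 the calls of DNASE2, HGSNAT, MANBA and CTSV were lost (adjusted p 0.0532 to 0.101), and that of GGH was kept. Among 10 genes of mannose 6-phosphate sorting, which carries hydrolases to the lysosome, 1 rose and 0 fell by limma (3 and 1 at an unadjusted p under 0.05), with a median of -0.13. The share that rose, 10%, is near the 9.10% of all tested probe sets. The riser was the receptor gene IGF2R (0.55 ± 0.09, limma adjusted p 0.00989; 0.0775 and 0.0819 without vehicle replicate 1 or 2). M6PR, the other receptor, differed by -0.14 (adjusted p 0.404) and GNPTAB, which makes the mannose 6-phosphate tag, by -0.20 (adjusted p 0.241). Neither was called, and these 2 were picked with their values in view.

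Of 15 other V-ATPase subunits and assembly factors 2 (13.3%) rose and 1 (6.67%) fell, with a median of 0.020. These shares are near the 9.10% and 10.5% of all tested probe sets, so the counts say little about this list. ATP6V0D2, the osteoclast-enriched isoform of ATP6V0D1, measured 5.22 and 5.04 with LY101-4B, against 3.41 and 3.38 with vehicle (1.73 ± 0.10, limma adjusted p 0.000675). Both of its groups were below the median mean value, so the size of this rise is uncertain. NCOA7, which binds the V-ATPase, rose 2.64-fold (adjusted p 0.00128), and the assembly factor gene VMA21 fell by 0.35 log2 units (adjusted p 0.0465). The calls of ATP6V0D2 and NCOA7 passed without any single array, and that of VMA21 in none of these fits (adjusted p 0.0572 to 0.293). Of 4 protease inhibitors and 6 genes of lysosome positioning, 0 and 0 were called by limma and 2 and 2 were higher at an unadjusted p under 0.05, with medians of 0.24 and 0.15.

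Among 8 regulators of the MiT/TFE family and its control, 4 (50%) rose and 0 fell by limma (5 and 0 at an unadjusted p under 0.05), with a median of 0.40. Of all tested probe sets 9.10% rose and 10.5% fell, and of those above the median mean value 14.4% and 18.9%. TFE3 measured 8.80 and 8.95 log2 units with LY101-4B, against 8.24 and 8.22 with vehicle (0.65 ± 0.09, limma adjusted p 0.00776). TFEB measured 6.10 and 6.03 with LY101-4B, against 5.70 and 5.68 with vehicle (0.38 ± 0.09, adjusted p 0.0325). MITF measured 5.24 and 5.42 with LY101-4B, against 4.72 and 4.60 with vehicle (0.67 ± 0.11, adjusted p 0.00982). FNIP1, a partner of folliculin in nutrient sensing, rose by 0.55 (adjusted p 0.0193). None of these genes had overlapping groups, and TFEB and MITF were below the median mean value in both groups. Each of the 4 calls was lost in at least 1 fit without 1 array. Adjusted p without vehicle replicate 1 and vehicle replicate 2 was 0.0545 and 0.0583 for TFE3, 0.197 and 0.211 for TFEB, 0.0437 and 0.0711 for MITF and 0.139 and 0.0492 for FNIP1. TFEB also missed the threshold without LY101-4B replicate 1 (0.0774) and with median centring (0.0617), and FNIP1 without LY101-4B replicate 2 (0.0587). These are transcript levels, and the activity of these factors depends largely on their phosphorylation and entry into the nucleus, which arrays do not measure.

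**Figure D4:**
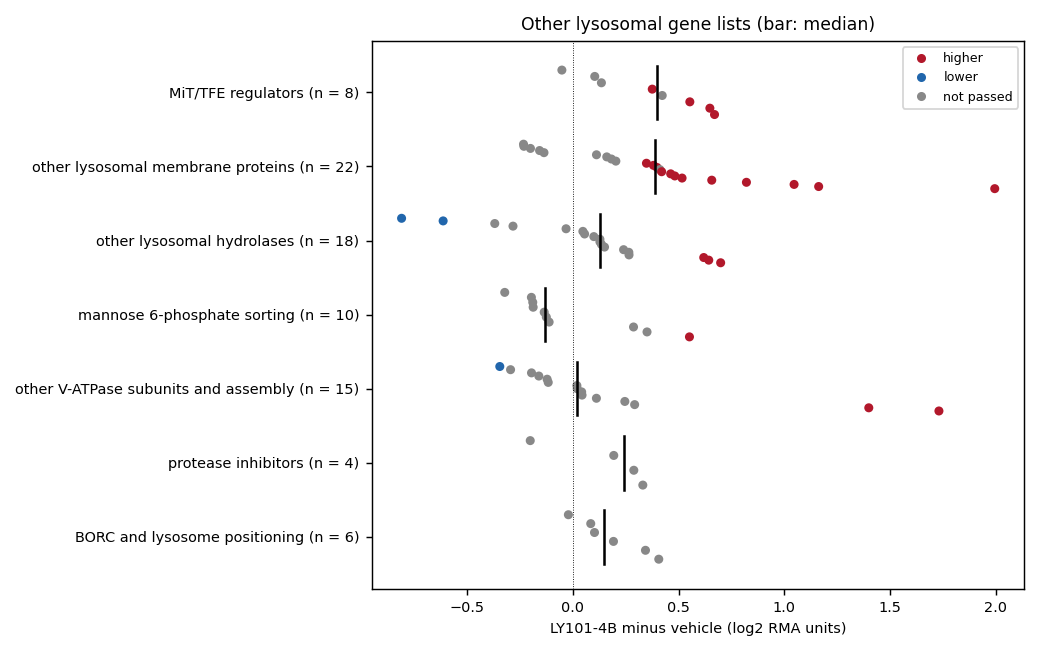
Log2 difference (LY101-4B minus vehicle, horizontal axis) of single genes in 7 other lysosomal lists, coloured by call at a limma adjusted p under 0.05, with bars for list medians. The medians of the MiT/TFE regulators and of other membrane proteins lie near 0.4, and those of the other lists between -0.13 and 0.24.

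The MiT/TFE factors bind the E-box CACGTG, and more tightly where it is flanked as in TCACGTGA or in the full lysosomal element GTCACGTGAC. RefSeq windows of GRCh38.p14, from 250 bases before to 50 after a gene's start, were matched for 33 of the 49 genes, 5 of which had several windows. CACGTG stood in a window of 11 of the 33 (33.3%), against 8.72% of 27058 genes with such windows. TCACGTGA stood in 6 (18.2%, against 1.18%) and GTCACGTGAC in 2 (6.06%, against 0.421%). The 3 motifs are nested, and each reads alike on both strands. CACGTG was found for 4 of 9 matched genes that rose, 0 of 2 that fell and 7 of 22 that did not pass, and for 5 of 18 hydrolases and 3 of 11 V-ATPase genes. A match is a description of the letters in the window and not evidence of binding. The element is known from lysosomal promoters and the 33 are lysosomal genes, so their higher shares are not a finding of these data. The 27058 genes were also not limited to those measured or bright on these arrays.

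The promoter windows of 5 genes are given as examples of windows with and without the motif. They were chosen after their values were seen, for the 2 largest rises, for LAMP1 and MCOLN1 as membrane proteins that did not pass, and for the V0 gene ATP6V0D1. Each reads 5′ to 3′ on the gene's strand in lower case, with CACGTG or its longer forms in capitals. The NEU1 window lies at chr6:31862772-31863071 on the minus strand, that of CTSL at chr9:87725869-87726168 on the plus strand and that of LAMP1 at chr13:113296989-113297288 on the plus strand. The MCOLN1 window lies at chr19:7522374-7522673 on the plus strand and that of ATP6V0D1 at chr16:67481108-67481407 on the minus strand.
NEU1: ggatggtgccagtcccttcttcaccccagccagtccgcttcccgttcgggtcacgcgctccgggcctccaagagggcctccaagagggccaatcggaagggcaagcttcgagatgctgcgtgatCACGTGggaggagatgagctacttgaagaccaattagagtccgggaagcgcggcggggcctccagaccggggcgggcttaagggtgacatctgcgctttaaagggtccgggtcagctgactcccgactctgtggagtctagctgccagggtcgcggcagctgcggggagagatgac
CTSL: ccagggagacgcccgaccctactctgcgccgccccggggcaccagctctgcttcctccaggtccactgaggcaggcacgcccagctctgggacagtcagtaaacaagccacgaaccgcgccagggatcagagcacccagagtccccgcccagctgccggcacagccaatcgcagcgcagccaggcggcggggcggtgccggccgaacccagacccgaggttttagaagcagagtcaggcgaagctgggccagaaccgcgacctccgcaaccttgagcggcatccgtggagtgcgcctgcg
LAMP1: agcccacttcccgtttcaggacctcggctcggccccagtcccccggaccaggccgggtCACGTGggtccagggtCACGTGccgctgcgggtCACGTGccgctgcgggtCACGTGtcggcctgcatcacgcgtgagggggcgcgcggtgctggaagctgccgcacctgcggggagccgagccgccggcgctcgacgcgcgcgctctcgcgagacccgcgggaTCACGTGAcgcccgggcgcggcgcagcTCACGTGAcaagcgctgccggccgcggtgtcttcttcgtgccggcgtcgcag
MCOLN1: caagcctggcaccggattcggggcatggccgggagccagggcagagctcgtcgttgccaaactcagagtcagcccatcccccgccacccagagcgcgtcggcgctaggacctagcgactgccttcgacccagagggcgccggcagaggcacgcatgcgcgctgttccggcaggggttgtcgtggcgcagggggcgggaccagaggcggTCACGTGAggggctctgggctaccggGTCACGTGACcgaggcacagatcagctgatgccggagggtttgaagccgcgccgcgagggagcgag
ATP6V0D1: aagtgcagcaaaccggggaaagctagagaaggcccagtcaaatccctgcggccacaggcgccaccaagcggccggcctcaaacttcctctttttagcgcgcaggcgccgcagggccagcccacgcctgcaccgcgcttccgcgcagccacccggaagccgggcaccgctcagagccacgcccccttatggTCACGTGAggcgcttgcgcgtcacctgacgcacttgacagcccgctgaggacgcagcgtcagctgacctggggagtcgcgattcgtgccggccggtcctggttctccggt
NEU1, with the largest rise, held 1 CACGTG that began 126 bases before the start. CTSL, with a rise nearly as large, held 0 in this window. LAMP1 held 6, which began 192, 176, 159, 142, 28 and 1 bases before the start, and its difference was -0.038. MCOLN1 held the full element GTCACGTGAC and 1 TCACGTGA, and its difference of 0.29 did not pass. ATP6V0D1 held 1 TCACGTGA, whose CACGTG began 59 bases before the start, and rose by 0.34. As the 5 were picked with their values in view, they describe these windows only and show nothing of a relation between matches and differences.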

How the data were processed

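The authors deposited 1 table of log2 expression values per probe set, made with RMA (background correction, quantile normalisation and probe summary) per the submitters' processing notes. The software version and filters are not given in sources used here. RMA ties changes to the bulk of probe sets and compresses differences at low signal. All 4 columns were used (0 unmapped).

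Genes were named from the platform annotation of 33297 probe sets: 19460 had 1 symbol, 1754 several and 12083 none. The 21214 with a symbol were fitted with limma 3.58.1 in R 4.3.3 (lmFit, eBayes, treatment as the only term, 2 residual degrees of freedom), and 2-sided p-values were adjusted by Benjamini-Hochberg over all of them, with a threshold of 0.05. The fit was tested on simulated data with 200 changed probe sets, far fewer than were called here. It recovered 4.4% of changes of 0.5 log2 units and 81.6% of changes of 1. The shares for these data are unknown, and a gene that did not pass may still have changed by a small amount. The number of arrays limits the precision. In all, 1930 rose and 2236 fell; with each array centred on its median 1528 rose and 2731 fell, which takes the share of rises among calls to 35.9%, against 46.3%.

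Every called gene of the 49 was named, with array values for up to 3 a role and direction and for LAMP1, LAMP2 and MCOLN1. From other lists up to 4 called genes were named (5 from the other hydrolases and 5 from the other membrane proteins), and TFEB, TFE3 and MITF always. The members and lists were chosen with earlier results of these data known. In the 11 alternatives, 1 array was left out, or the replicate block, scaling, dim-probe filter, rows tested, variance trend or probe set choice was changed. Averages over genes have no test.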

Additional observations from a re-analysis of the deposited data

How the results depend on the processing

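Leaving out 1 array gave 1610 to 4366 calls over all tested probe sets (4166 with all arrays), 5 to 8 genes higher of the 49 (12) and 1 to 4 lower (4). The hydrolase median ran from 0.032 to 0.19, the V-ATPase median from 0.18 to 0.21, with the hydrolase median the higher one without LY101-4B replicate 1, and the hydrolase mean minus the V-ATPase mean from -0.029 to 0.021. Testing all rows of the table gave 2433 calls, with 6 genes higher and 1 lower; CTSB, HEXA, ASAH1, PPT1, ATP6V1A and the 4 V0 calls were lost (limma adjusted p 0.0539 to 0.119). With each array centred on its median 8 genes were higher and 4 lower, and the hydrolase median was -0.017 and the V-ATPase median 0.15. Under cyclic loess the medians were 0.11 for hydrolases and 0.30 for V-ATPase genes, and the mean difference between the classes was -0.045. Over probe sets above the median mean value the hydrolase median was 0.10 and the difference between the classes 0.023, because CTSF, CTSK, CTSO, CTSS and ARSA dropped out. Cyclic loess called 15 genes higher and 3 lower, the brighter probe sets 17 and 4, and the intensity trend 17 and 4 (5235 calls over all tested probe sets), under which CTSA, LAMP2, ATP6V1E1, ATP6AP1 and ATP6AP2 also passed (limma adjusted p 0.0305, 0.0108, 0.0451, 0.00923 and 0.0142). The calls that passed in all 4 fits without 1 array were those of CTSC, CTSL, TPP1, NEU1, IDS and PSAP, and these fits take their spread from fewer arrays. Replicate numbers were not shown to pair the samples (correlation of deviations 0.12, 1 value). With the replicate block 4336 probe sets, 10 genes higher and 3 lower were called, and ATP6V0B, ATP6V0D1 and PPT1 missed the threshold (limma adjusted p 0.0544, 0.0592 and 0.0518). Sign changed for 11 uncalled genes. Over the fits without 1 array, CTSF ran from -0.025 to 0.12, CTSZ from -0.035 to 0.099, CTSO from -0.26 to 0.20, CTSS from -0.37 to 0.0059, NAGLU from -0.082 to 0.11, SGSH from -0.059 to 0.0022, LIPA from -0.059 to 0.032 and ATP6V1D from -0.24 to 0.14. With median centring CTSF was -0.017, CTSZ -0.032 and NAGLU -0.051. Under cyclic loess GLA was 0.028, LIPA 0.079, GM2A 0.013, LAMP1 0.042 and ATP6V1D 0.032. Where no construction is named, the cause was not tested.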
